A study of Homo sapiens with 8 samples.

Results

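The clustered replication-dependent histone genes were examined in HT29 cells. A gene was a member when its name in the deposited expression table began with HIST1H, HIST2H, HIST3H or HIST4H, and 71 of the 38148 genes of the table matched. The pseudogene HIST2H3PS2 was set aside, which left 70 members. They comprised 6 genes of the linker histone H1, 17 of H2A, 18 of H2B, 14 of H3 and 15 of H4. By location, 55 belonged to the large HIST1 cluster on chromosome 6, 11 to HIST2 and 3 to HIST3, both on chromosome 1, and 1 was HIST4H4 on chromosome 12.

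The HT29 line was derived from a human colorectal tumour, and selumetinib blocks MEK, the kinase upstream of ERK. Cells were grown without drug or with 1 μM selumetinib for 24 h, preserved in glyoxal, stained for cyclin B1 (encoded by CCNB1, a protein that builds up from S phase into G2) and sorted by its level. The 4 groups were untreated CCNB1-negative, untreated CCNB1-positive, selumetinib CCNB1-negative and selumetinib CCNB1-positive cells, each with replicates 1 and 2 of 1 and the same cell line. Every library was made from RNA selected for a poly(A) tail.

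Core histones H2A, H2B, H3 and H4 form the nucleosome, and H1 binds the linker DNA between nucleosomes. The clustered genes are transcribed in S phase, when new DNA needs packaging. Their usual mRNA ends in a short stem-loop instead of a poly(A) tail. The stem-loop is bound by SLBP, which directs 3′ processing and translation and is needed for the rapid decay of the mRNA when DNA synthesis stops. Some of the genes also have a polyadenylation signal further downstream and make polyadenylated transcripts, a form known from differentiating and non-dividing cells. The libraries therefore sampled polyadenylated transcripts and whatever stem-loop mRNA was carried through the selection, and the total amount of histone mRNA was not measured.

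The stem-loop was looked for in GRCh38 downstream of each stop codon, with the stop codons of GENCODE release 44, because it is the feature that the poly(A) selection works against. Of the 70 members 68 were found in that release, the exceptions being HIST2H2AA3 and HIST2H2AA4, and all 68 were protein-coding. All 68 carried a match to the 16-base consensus of the stem-loop within 100 bases of the stop codon, starting 23 to 63 bases after it, with a median of 36. Of 19978 other protein-coding genes, 4 had a match in the same window. The matches fell into 10 sequences, of which one occurred in 38 members and 6 in a single member each, HIST1H3E among them. Those of 7 members on which the results turn are shown 5′ to 3′ on the strand of each gene, in DNA letters, with the stem-loop in capitals.
HIST1H2AC, chr6:26124669-26124684, plus strand: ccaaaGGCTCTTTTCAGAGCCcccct
HIST1H2BD, chr6:26158587-26158602, plus strand: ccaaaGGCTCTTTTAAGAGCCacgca
HIST1H1C, chr6:26055744-26055759, minus strand: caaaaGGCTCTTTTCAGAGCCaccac
HIST1H3E, chr6:26225596-26225611, plus strand: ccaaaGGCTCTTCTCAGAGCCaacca
HIST1H4H, chr6:26285131-26285146, minus strand: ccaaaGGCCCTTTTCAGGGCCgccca
HIST1H3G, chr6:26270923-26270938, minus strand: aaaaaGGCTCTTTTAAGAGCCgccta
HIST1H2BJ, chr6:27132321-27132336, minus strand: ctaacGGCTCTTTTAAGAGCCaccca
The stem-loop of HIST1H2BD, HIST1H3G and HIST1H2BJ was of a kind found in 10 members, and that of HIST1H4H of another kind found in 10. HIST1H2BD, which rose with selumetinib in both fractions, and HIST1H3G, which fell in one of them, thus had the same 16 bases.

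The labels of the libraries contradict each other. For all 8, the title gives the other treatment and the other fraction than the short description does. The groups follow the descriptions, which are also the column names of the table. If the titles were right, each response to selumetinib would belong to the other fraction with its sign turned. CCNB1 itself, the sorting marker, stood at 136 and 171 RPM (reads on the gene per 1000000 reads on all genes of the library) in untreated CCNB1-negative, 591 and 704 in untreated CCNB1-positive, 11.0 and 6.93 in selumetinib CCNB1-negative and 309 and 267 in selumetinib CCNB1-positive cells. It was higher in the fraction described as positive in both treatments. By the titles it would be lower in the positive fraction in both treatments, which goes against the sort.

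The libraries held between 12696860 and 23916160 reads on genes. Mitochondrial transcripts took 4.44 to 7.80% of these reads in untreated and 11.9 to 14.8% in treated libraries, and the nuclear RNA MALAT1 took 0.303 to 0.386% and 2.01 to 4.42%. All 9 colorectal epithelial markers were present, EPCAM at 340 to 929 RPM and CDX2 at 2.09 to 6.81 RPM. The 6 markers of other cell types summed to 1.57 to 2.09 RPM in untreated and 3.54 to 7.06 RPM in treated libraries, with CD3E and COL3A1 at 0 or near it in each library and COL1A1 at 0.314 to 1.00 RPM in untreated and 1.57 to 5.36 RPM in treated libraries. The part of these shifts in the histone results was not tested, apart from a rescaling without mitochondrial genes and MALAT1. Replicates of a group differed by more than counting error, with a chi-square per gene of 19.0 to 34.3. The sources used here do not say whether replicates came from separate cultures, so the p-values measure the spread between these libraries, which may be technical.

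Few reads fell on the members. Together they took 34.4 and 39.3 RPM in untreated CCNB1-negative and 30.6 and 28.0 RPM in untreated CCNB1-positive cells. In selumetinib-treated cells the sum was 154 and 153 RPM in CCNB1-negative and 120 and 108 RPM in CCNB1-positive cells. All 4 treated libraries thus lay above all 4 untreated ones, and within each treatment the CCNB1-negative libraries lay above the CCNB1-positive ones. In reads, the sums were 616 to 756 per untreated and 1530 to 2404 per treated library.

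**Figure D1:**
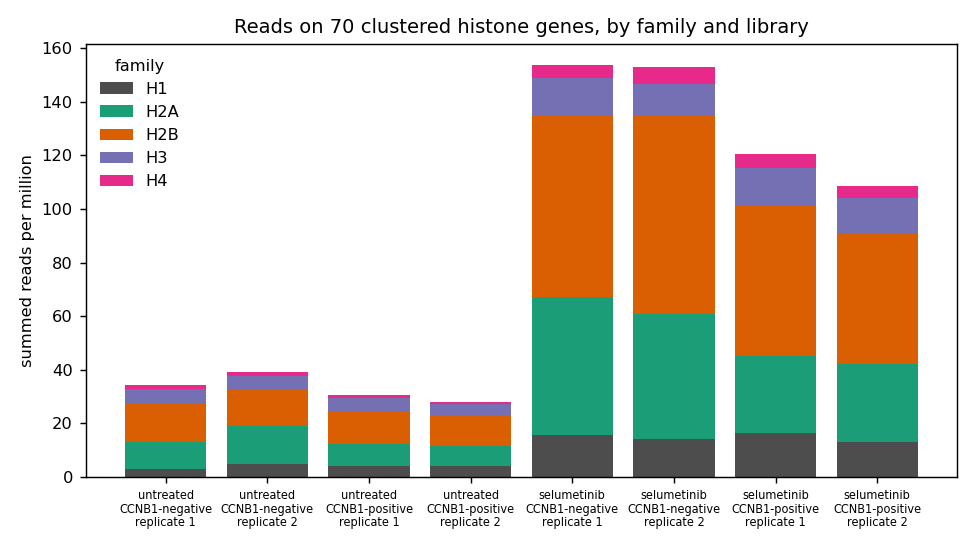
Bars give the summed RPM of the 70 members in each of the 8 libraries (replicates 1 and 2 of the 4 groups), stacked by histone family. The untreated libraries reach 28.0 to 39.3 and the selumetinib libraries 108 to 154, with H2B and H2A making up most of each bar.

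Each family had a higher sum in every treated than in every untreated library. H2B genes, the largest share, summed to 11.1 to 14.6 RPM without and 49.0 to 74.1 RPM with selumetinib. H2A genes summed to 7.49 to 14.1 RPM without and 28.5 to 51.5 RPM with it. The H3 genes gave 4.36 to 5.28 and 12.0 to 14.4 RPM, the H1 genes 3.19 to 4.92 and 13.3 to 16.6 RPM, and the H4 genes 0.817 to 1.73 and 4.32 to 6.22 RPM. Nearly all of the H1 sum was HIST1H1C, at 3.01 to 4.34 and 13.0 to 16.4 RPM. By cluster, HIST1 and HIST2 showed the same separation, whereas the sums of HIST3 overlapped, at 4.10 to 7.79 RPM without and 4.86 to 7.79 RPM with the drug.

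A pair of genes carried much of the treated sum. HIST1H2AC and HIST1H2BD together took 13.6 to 20.6% of member reads in the untreated libraries, 49.9 and 54.6% in selumetinib CCNB1-negative and 39.0 and 35.6% in selumetinib CCNB1-positive cells. Without the pair, the other 68 members summed to 24.1 to 31.9 RPM in untreated and 69.4 to 77.1 RPM in treated libraries. The separation by treatment was thus present without them, while the treated CCNB1-negative and CCNB1-positive libraries then overlapped. In bulk libraries a change in the number of cells that express a gene and a change in RNA per cell cannot be told apart.

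A gene was tested when its mean over the 8 libraries was at least 1 RPM, which 14920 genes and 15 members reached. Of these 15, 12 had an untreated group at 1 RPM or more and 3 passed through treated groups alone, so that the tested members are not the whole family. They are 1 H1, 2 H2A, 8 H2B, 3 H3 and 1 H4 gene. The other 55 members had a mean of at most 0.953 RPM (HIST1H3H), against 1.24 RPM for the lowest tested (HIST1H3G). Of all 70 members, 12 had no read in any library, 33 had fewer than 10 reads in the 8 libraries together and 26 had a read in every library.

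Most member reads fell on genes with a long annotated 3′ end or a spliced transcript. RPM are not divided by length, so a longer span can itself gather more reads. The table listed 31 of 68 members only as far as the stop codon and 35 only to a point short of their own stem-loop, so reads beyond that point were not counted for them. A 3′ end more than 200 bases past the stop codon, or a spliced transcript, was annotated for 26 of 68 members and for 13 of the 15 tested. Another 13 of the 26 were not tested. The remaining tested members were HIST1H1C and HIST1H2BK. These 26 genes took 70.1 to 79.9% of member reads in untreated and 81.4 to 89.2% in treated libraries. The 44 others summed to 6.92 to 10.5 RPM and 16.5 to 21.7 RPM, so their sum, too, was higher in every treated library. HIST1H1C, 1 of the 44, stood at 3.01 to 4.34 and 13.0 to 16.4 RPM and made up most of that rise. In selumetinib CCNB1-negative replicate 2 the 44 summed to 16.5 RPM, of which HIST1H1C was 14.3. In untreated CCNB1-negative replicate 2 they summed to 10.5 RPM, of which HIST1H1C was 4.34. The rest was thus lower in that treated library, so without HIST1H1C the separation by treatment was not present.

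**Figure D2:**
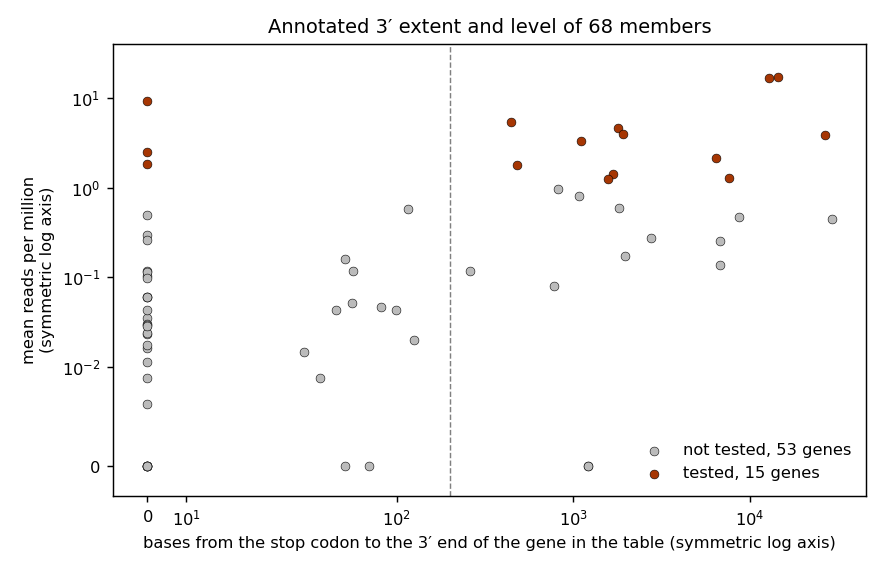
Each point is 1 of 68 members, with the distance in bases from the stop codon to the 3′ end of the gene in the table on the horizontal axis and mean RPM over 8 libraries on the vertical axis, both on symmetric log axes. RPM are not divided by length. The dashed line marks 200 bases, and 12 of the 15 tested members lie to its right. HIST1H1C, HIST1H2BK and the spliced HIST1H3J lie at 0.

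Levels of single genes were compared per length, as RPM per kilobase averaged over the 8 libraries. The length was the exonic bases of GENCODE release 44 inside the span for genes with a spliced transcript there, and the whole span otherwise. Which bases the authors counted is not stated in the sources used here, and the order can depend on this choice. HIST1H3J was divided by 522 bases, whereas its span was 2725. In H1, HIST1H1C stood at 14.4, against 0.166 for HIST1H1B and 0.154 for HIST1H1E. In H2A, HIST1H2AC stood at 10.2, HIST3H2A at 6.09 and HIST1H2AE at 1.13. In H2B the order was HIST1H2BD at 21.0, HIST1H2BK at 4.76 and HIST1H2BJ at 2.27. In H3 it was HIST1H3J at 4.72, HIST1H3E at 1.48 and HIST1H3H at 0.770, and in H4 HIST1H4H at 0.585, HIST1H4E at 0.535 and HIST1H4D at 0.371. These averages pool treated and untreated libraries, and the order changed with treatment in every family but H1. In untreated cells HIST3H2A (5.76) stood above HIST1H2AC (1.95), HIST1H2BK (5.01) above HIST1H2BD (3.11), and HIST1H4C (0.505) was the first of H4. In treated cells HIST1H2AC (18.5), HIST1H2BD (38.8) and HIST1H4H (1.05) were the first of their families. HIST1H1C led H1 (5.71 and 23.1) and HIST1H3J led H3 (3.69 and 5.74) in both. Sequence shared with other genes limits some of these values. HIST1H2BK had 57.2% of its 50-base stretches in transcripts of other genes, HIST1H2BN overlapped HIST1H2AK, HIST1H3J overlapped HIST1H2AM, and HIST1H2BD and HIST1H2BE overlapped the opposite-strand gene AL353759.1. The treatment of strand and of multiply mapped reads in this table is not stated in the sources used here, so reads of such genes may have been split.

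The first comparison asked how CCNB1-negative cells differed after selumetinib. Of 15 members tested, 9 rose (60.0%), against 39.9% of all genes tested, and 1 fell, against 34.4%. Of the 9, 6 rose past 4-fold, which 13.1% of all genes did. The 3 members that passed the filter through treated groups alone (HIST1H3E, HIST1H4H and HIST1H2BH) had to be higher there, and among the other 12 members 6 rose, 4 of them past 4-fold. The share over all genes filtered in the same way was not taken. The split depended on the scaling: under quantile normalization 8 of 15 rose and 5 fell. Over all 14920 genes 5240 rose and 5516 fell under that normalization. The median log2 fold change was 1.76 over the members and 0.12 over all genes. Tests are limma on log2 values, with p-values adjusted by Benjamini-Hochberg over all genes and a threshold of 0.05. These log2 values are scaled otherwise than RPM, so fold changes can differ from ratios of RPM.

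The second comparison asked the same of CCNB1-positive cells. Here 11 of 15 members rose (73.3%), against 39.7% of all genes, 5 of them past 4-fold, against 11.0%. No member fell by limma at an adjusted or an unadjusted p under 0.05, or by limma-voom, where 26.3% of all genes did. Among the 12 members with an untreated group at 1 RPM or more, 8 rose, 2 of them past 4-fold, again without a share over genes filtered alike. Under quantile normalization 7 of 15 rose and none fell, where 4221 and 4451 of all 14920 genes did. The median log2 fold change was 1.91 over the members and 0.22 over all genes. The same 9 members that rose in CCNB1-negative cells rose here, with HIST1H3J and HIST1H2BJ in addition.

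**Figure D3:**
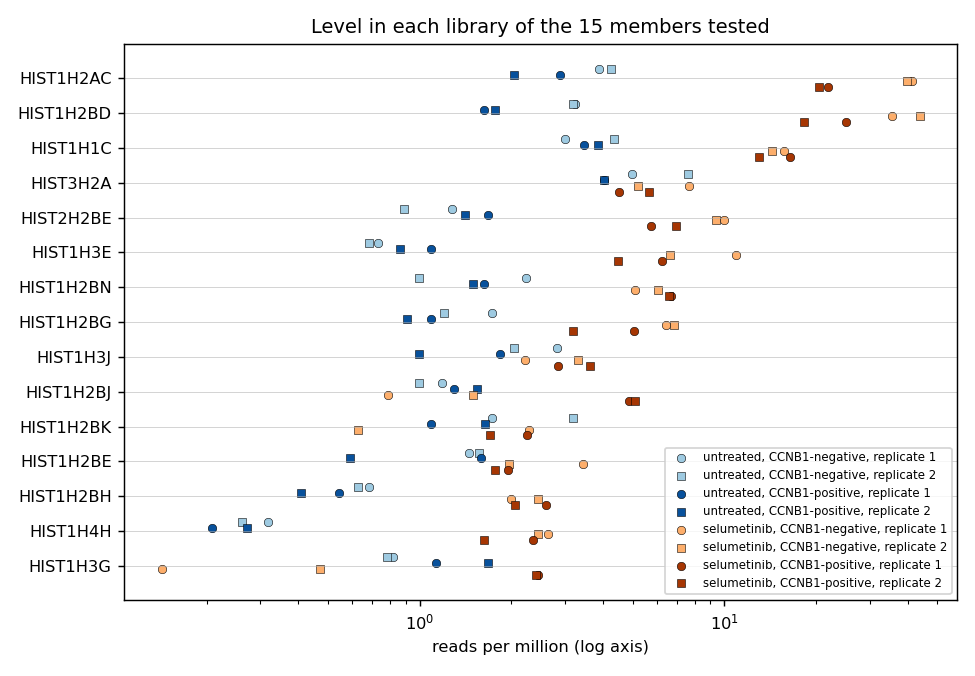
Points give RPM (log axis) of the 15 tested members in each of the 8 libraries, with circles for replicate 1 and squares for replicate 2. For HIST1H2AC, HIST1H2BD and HIST1H1C all 4 treated points lie right of all 4 untreated points, whereas for HIST1H3G the selumetinib CCNB1-negative points are the lowest.

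The only tested H1 gene was HIST1H1C, which encodes the linker histone H1.2. Its level was 3.01 and 4.34 RPM in untreated CCNB1-negative, 3.47 and 3.86 in untreated CCNB1-positive, 15.7 and 14.3 in selumetinib CCNB1-negative and 16.4 and 13.0 RPM in selumetinib CCNB1-positive cells. Treated and untreated libraries did not overlap, and the fractions lay together within each treatment. The log2 fold change was 1.91 ± 0.24 (SE, n = 2 per group) in CCNB1-negative cells (limma adjusted p = 8.8e-06) and 1.89 ± 0.24 in CCNB1-positive cells (limma adjusted p = 1.9e-05). It is a member without an annotated extension past the stop codon.

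HIST1H2AC encodes an H2A protein of the replication-dependent type. It stood at 3.87 and 4.24 RPM in untreated CCNB1-negative, 2.89 and 2.04 in untreated CCNB1-positive, 41.3 and 39.9 in selumetinib CCNB1-negative and 21.9 and 20.4 RPM in selumetinib CCNB1-positive cells. Every treated library was above every untreated one, and in both treatments the CCNB1-negative libraries were the higher. The response was 9.09-fold in CCNB1-negative cells (log2 3.18 ± 0.21, limma adjusted p = 2.9e-08) and 8.11-fold in CCNB1-positive cells (log2 3.02 ± 0.21, limma adjusted p = 2.3e-07).

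HIST1H2BD, an H2B gene, rose in both fractions. Its level was 3.23 and 3.19 RPM in untreated CCNB1-negative, 1.63 and 1.77 in untreated CCNB1-positive, 35.5 and 43.7 in selumetinib CCNB1-negative and 25.0 and 18.2 RPM in selumetinib CCNB1-positive cells. The order of the groups was that of HIST1H2AC, again with no overlap. The fold was 11.1 in CCNB1-negative cells (log2 3.48 ± 0.22, limma adjusted p = 2.1e-08) and 11.7 in CCNB1-positive cells (log2 3.55 ± 0.22, limma adjusted p = 1e-07).

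HIST1H3E, an H3 gene, stood at 0.729 and 0.680 RPM in untreated CCNB1-negative, 1.09 and 0.862 in untreated CCNB1-positive, 10.9 and 6.62 in selumetinib CCNB1-negative and 6.26 and 4.47 RPM in selumetinib CCNB1-positive cells. Treated libraries lay above untreated ones throughout. HIST1H3E passed the filter through its treated groups alone, so it had to be higher there. The log2 fold change was 3.46 ± 0.36 in CCNB1-negative cells (limma adjusted p = 1.4e-06) and 2.34 ± 0.36 in CCNB1-positive cells (limma adjusted p = 8.3e-05). HIST2H2BE, an H2B gene of the HIST2 cluster, stood at 1.28 and 0.889, then 1.67 and 1.41, then 9.94 and 9.37, then 5.76 and 6.95 RPM in the same order of groups. It had the same separation by treatment, with log2 fold changes of 3.04 ± 0.30 (limma adjusted p = 8.4e-07) and 1.94 ± 0.30 (limma adjusted p = 8.7e-05).

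HIST1H4H was the only H4 gene tested. Its level was 0.319 and 0.262 RPM in untreated CCNB1-negative, 0.209 and 0.272 in untreated CCNB1-positive, 2.65 and 2.44 in selumetinib CCNB1-negative and 2.35 and 1.63 RPM in selumetinib CCNB1-positive cells. It is one of the genes that passed the filter through its treated libraries, and its untreated values rest on 5 to 7 reads per library. The log2 fold change was 3.00 ± 0.53 in CCNB1-negative cells (limma adjusted p = 1.6e-04) and 2.93 ± 0.53 in CCNB1-positive cells (limma adjusted p = 2.9e-04).

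The H2B genes HIST1H2BG, HIST1H2BH and HIST1H2BN also rose in both fractions. Their log2 fold changes were 1.62 (HIST1H2BH) to 2.06 (HIST1H2BG) in CCNB1-negative cells and 1.91 (HIST1H2BG) to 2.19 (HIST1H2BH) in CCNB1-positive cells, all of them past the threshold of limma. HIST1H2BH passed the filter through its treated groups alone, so it had to be higher there. Under quantile normalization HIST1H2BH lost its call in CCNB1-negative (0.45, limma adjusted p = 0.35) and CCNB1-positive cells (0.81, 0.11), and HIST1H2BG lost its call in CCNB1-positive cells (0.67, limma adjusted p = 0.092). The H2B gene HIST1H2BE had log2 fold changes of 0.64 and 0.84 that did not pass and that turned to -0.50 and -0.44 under quantile normalization. HIST1H2BK, the H2B gene with shared sequence, had -1.11 ± 0.56 (limma adjusted p = 0.086) and 0.45 ± 0.56 (0.49), or -2.27 (0.0046) and -0.78 (0.28) under quantile normalization. HIST3H2A, an H2A gene of the small HIST3 cluster and the 4th most abundant member in RPM, had log2 fold changes of -0.10 ± 0.29 and 0.22 ± 0.29 and passed the test in none of the comparisons, although under quantile normalization it fell in CCNB1-negative cells (-0.80, limma adjusted p = 0.030). Its levels were 4.01 to 7.59 RPM without and 4.51 to 7.65 RPM with selumetinib, with full overlap.

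**Figure D4:**
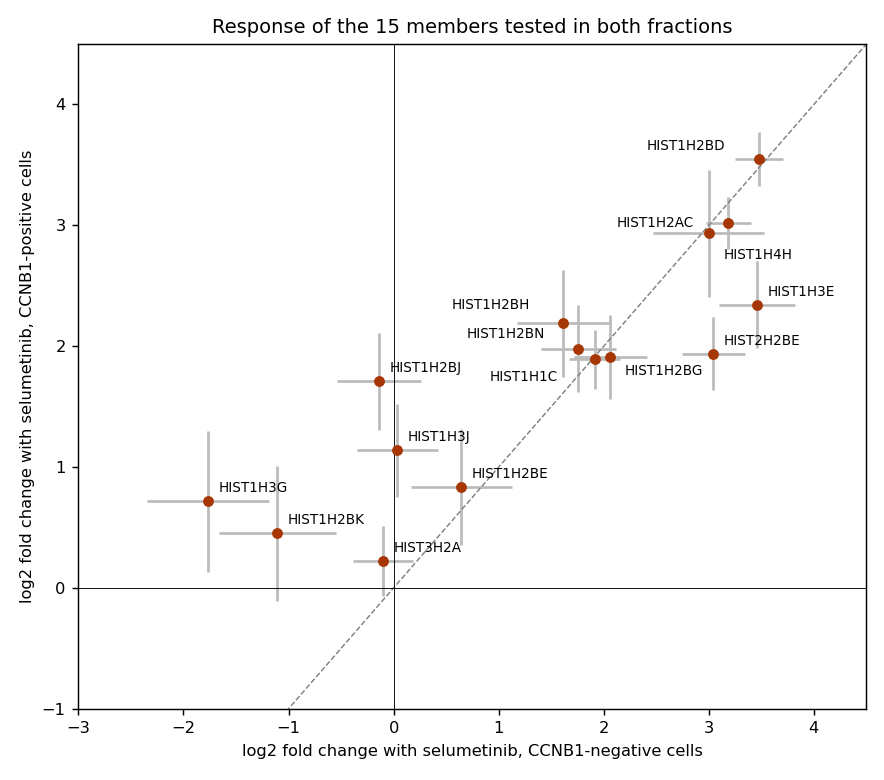
Each point is 1 of the 15 tested members, with its log2 fold change with selumetinib in CCNB1-negative cells on the horizontal axis and in CCNB1-positive cells on the vertical axis, bars giving standard errors and the dashed line equal responses. HIST1H2BD, HIST1H2AC, HIST1H4H and HIST1H1C lie on or near the line, and HIST1H3G and HIST1H2BJ lie above it, at -1.76 and -0.14 on the horizontal axis.

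HIST1H3G, an H3 gene, was the 1 member that fell. Under quantile normalization it fell further (-3.08, limma adjusted p = 3.9e-04), and HIST1H2BK, HIST1H2BJ, HIST1H3J and HIST3H2A were called lower with it, all in CCNB1-negative cells. It stood at 0.820 and 0.785 RPM in untreated CCNB1-negative, 1.13 and 1.68 in untreated CCNB1-positive, 0.143 and 0.473 in selumetinib CCNB1-negative and 2.45 and 2.41 RPM in selumetinib CCNB1-positive cells. The selumetinib CCNB1-negative libraries were the lowest of all 8 and the selumetinib CCNB1-positive ones the highest. In CCNB1-negative cells the log2 fold change was -1.76 ± 0.58 (limma adjusted p = 0.014), but without selumetinib CCNB1-negative replicate 1 it was -0.92 (limma adjusted p = 0.13), and the call was also lost without a filter (0.054) and with a pseudocount of 1 RPM (0.071). In CCNB1-positive cells it was 0.72 ± 0.58 (limma adjusted p = 0.29), or -0.50 (0.47) under quantile normalization.

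HIST1H2BJ, an H2B gene, was high in 1 group. It stood at 1.18 and 0.994 RPM in untreated CCNB1-negative, 1.30 and 1.54 in untreated CCNB1-positive, 0.786 and 1.5 in selumetinib CCNB1-negative and 4.86 and 5.10 RPM in selumetinib CCNB1-positive cells. The last 2 values lay well above the other 6, which overlapped. The log2 fold change was -0.14 ± 0.40 in CCNB1-negative cells (limma adjusted p = 0.76) and 1.71 ± 0.40 in CCNB1-positive cells (limma adjusted p = 0.0021), and under quantile normalization these were -1.35 (limma adjusted p = 0.0082) and 0.58 (0.23). HIST1H3J, an H3 gene, also rose in CCNB1-positive cells alone, by log2 1.14 ± 0.39 (limma adjusted p = 0.018), against 0.03 ± 0.39 in CCNB1-negative cells (-1.03 under quantile normalization). That call was lost without untreated CCNB1-positive replicate 2 (0.71, limma adjusted p = 0.18) and without selumetinib CCNB1-positive replicate 2 (0.98, limma adjusted p = 0.11), and its sign turned under quantile normalization (-0.05).

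Whether the responses of the fractions differed was tested by the interaction of treatment and fraction. No member passed by limma (5.01% of all genes did), 4 had an unadjusted p under 0.05, and limma-voom called none. The difference, CCNB1-positive minus CCNB1-negative, was 2.48 ± 0.82 log2 units for HIST1H3G (limma adjusted p = 0.11), 1.85 ± 0.57 for HIST1H2BJ (0.086) and 1.56 ± 0.79 for HIST1H2BK (0.29). At the other end it was -1.11 ± 0.51 for HIST1H3E (0.25), -1.10 ± 0.43 for HIST2H2BE (0.17) and -0.17 ± 0.30 for HIST1H2AC (0.80). Without selumetinib CCNB1-negative replicate 2, HIST1H3G (3.33, limma adjusted p = 0.026) and HIST1H2BJ (2.30, limma adjusted p = 0.046) passed. With replicate 1 of that group left out instead, HIST1H2BK passed (2.50, limma adjusted p = 0.042), so the result of this test depended on single libraries.

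In untreated cells the fractions were close. Of 15 members tested by limma, 1 was lower in CCNB1-positive cells (1.49% of all genes were) and none was higher (1.31% of all genes were), and 2 had an unadjusted p under 0.05. The 1 was HIST1H2BD, with a log2 difference of -0.91 ± 0.22 (limma adjusted p = 0.046), which limma-voom did not call (adjusted p = 0.26). The call was lost whichever of the 8 libraries was left out (limma adjusted p from 0.057 to 0.18). HIST1H2AC had a log2 difference of -0.73 ± 0.21 (limma adjusted p = 0.099). The median log2 difference was -0.47 over the members and -0.06 over all genes.

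Under selumetinib the fractions differed in 4 members. HIST1H3G and HIST1H2BJ were higher in CCNB1-positive cells (2 of 15, against 13.1% of all genes), by log2 3.27 ± 0.58 (limma adjusted p = 0.0016) and 2.24 ± 0.40 (limma adjusted p = 0.0017). HIST1H2AC and HIST1H2BD were lower (2 of 15, against 7.33% of all genes), by log2 -0.90 ± 0.21 (limma adjusted p = 0.010) and -0.85 ± 0.22 (limma adjusted p = 0.018). The shares are near those of all genes for the higher calls. These differences use the same treated libraries as the responses above, shown per library there. Both lower calls were lost without selumetinib CCNB1-negative replicate 2 (limma adjusted p = 0.058 for HIST1H2AC and 0.16 for HIST1H2BD) and without selumetinib CCNB1-positive replicate 2 (0.077 and 0.18), and that of HIST1H2AC also without selumetinib CCNB1-positive replicate 1 (0.056).

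Among the members that were not tested, neighbours of the genes high in selumetinib CCNB1-positive cells had a like order of values in treated cells. They were looked at after the values of HIST1H3G and HIST1H2BJ were known. HIST1H2BI starts 1160 bases from HIST1H3G on the opposite strand and had 12 and 2 reads in untreated CCNB1-negative, 12 and 16 in untreated CCNB1-positive, 1 and 0 in selumetinib CCNB1-negative and 12 and 19 in selumetinib CCNB1-positive libraries. HIST1H2AG starts 291 bases from HIST1H2BJ on the opposite strand and stood at 0.273 and 1.26 RPM in untreated CCNB1-negative, 0.418 and 0.454 in untreated CCNB1-positive, 0.357 and 0.236 in selumetinib CCNB1-negative and 0.901 and 0.780 RPM in selumetinib CCNB1-positive cells. For both genes the selumetinib CCNB1-positive values exceeded the selumetinib CCNB1-negative ones, and the untreated values spread widely. HIST1H2BC lies 218 bases from HIST1H2AC on the opposite strand and did not share its separation by treatment. It stood at 0.182 to 0.575 RPM without and 0.357 to 0.866 RPM with selumetinib, which overlap.

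Other members below the filter were read as values. HIST1H3H, an H3 gene, stood at 0.408 to 0.575 RPM without and 0.929 to 1.80 RPM with selumetinib. HIST1H4E, an H4 gene, stood at 0.136 to 0.335 and 1.14 to 1.5 RPM, and HIST1H2AE, an H2A gene, at 0.125 to 0.227 and 0.751 to 1.36 RPM. In these genes every treated library was above every untreated one. The H1 genes HIST1H1B and HIST1H1E had 0.0455 to 0.376 and 0.0455 to 0.366 RPM without the drug and 0 reads in both selumetinib CCNB1-negative libraries. All 55 untested members together took 4.37 to 6.75 RPM in untreated and 7.86 to 11.7 RPM in treated libraries.

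The promoters of 63 members were matched in RefSeq (GRCh38.p14, 250 bases before to 50 after the start). CCAAT, on either strand, was in 53 of 63, against 34.6% of 35116 promoters. It was in all 6 H1, 14 H2A, 18 H2B and 12 H3 promoters matched and in 3 of 13 H4 promoters. TATAAA, on the strand of the gene, was in 36 of 63, against 7.33%. ATGCAAAT, the octamer bound by POU2F1 and its relatives, on either strand, was in 26 of 63, against 1.77%, made up of 11 of 14 H2A, 14 of 18 H2B, 1 of 12 H3, none of 13 H4 and none of 6 H1 promoters. Those of HIST1H2AC, HIST1H2BJ and HIST1H3G are shown 5′ to 3′ on the strand of the gene, with these motifs in capitals, because their genes had the contrasting patterns above.
HIST1H2AC, chr6:26123922-26124221, plus strand: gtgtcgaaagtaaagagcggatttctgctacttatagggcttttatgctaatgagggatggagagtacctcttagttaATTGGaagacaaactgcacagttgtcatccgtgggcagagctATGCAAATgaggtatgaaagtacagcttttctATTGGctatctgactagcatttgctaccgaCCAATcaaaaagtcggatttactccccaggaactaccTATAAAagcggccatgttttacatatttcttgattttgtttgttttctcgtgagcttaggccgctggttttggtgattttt
HIST1H2BJ, chr6:27132746-27133045, minus strand: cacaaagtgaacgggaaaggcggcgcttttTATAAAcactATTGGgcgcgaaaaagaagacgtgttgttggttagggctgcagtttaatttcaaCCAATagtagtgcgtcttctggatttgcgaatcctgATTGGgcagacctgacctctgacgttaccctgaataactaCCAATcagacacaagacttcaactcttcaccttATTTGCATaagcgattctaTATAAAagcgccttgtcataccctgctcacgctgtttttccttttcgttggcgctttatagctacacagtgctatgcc
HIST1H3G, chr6:26271364-26271663, minus strand: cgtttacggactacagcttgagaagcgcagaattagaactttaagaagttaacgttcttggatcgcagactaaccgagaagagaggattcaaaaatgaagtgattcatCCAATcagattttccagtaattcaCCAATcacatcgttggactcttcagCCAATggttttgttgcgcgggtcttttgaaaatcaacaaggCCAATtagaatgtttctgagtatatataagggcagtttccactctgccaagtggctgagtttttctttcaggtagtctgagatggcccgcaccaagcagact
HIST1H2AC and HIST1H2BJ held all 3 motifs and HIST1H3G only CCAAT. HIST1H1C, which rose in both fractions, also held only CCAAT. HIST1H2BD, which rose in both fractions too, held CCAAT and TATAAA but not the octamer. A match is a description of the letters and does not show a bound factor. Only the exact letters were counted, so a missing match does not show that a similar sequence is absent. The HIST1H3G promoter, for example, holds tatataa.

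RNAs that lack a poly(A) tail were read as a measure of carry-over through the selection. RMRP, RPPH1, TERC and SCARNA2 were in the table. Their summed level was 1.96 and 6.33 RPM in untreated CCNB1-negative, 4.98 and 3.09 in untreated CCNB1-positive, 5.36 and 5.51 in selumetinib CCNB1-negative and 2.70 and 6.52 RPM in selumetinib CCNB1-positive cells. Untreated and treated libraries overlapped, and of the 2 genes tested neither was called in any comparison.

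Factors of histone mRNA synthesis, 3′ processing and decay mostly fell with selumetinib. Of 21 tested, 14 fell and 6 rose in CCNB1-negative cells (median log2 fold change -1.08) and 13 fell and 6 rose in CCNB1-positive cells (median -0.69), beside the shares for all genes given above. SLBP, the stem-loop binding protein, stood at 133 and 165 RPM in untreated CCNB1-negative, 74.6 and 77.0 in untreated CCNB1-positive, 28.2 and 25.3 in selumetinib CCNB1-negative and 36.3 and 32.5 RPM in selumetinib CCNB1-positive cells. All treated libraries were below all untreated ones, with log2 fold changes of -2.61 ± 0.16 (limma adjusted p = 1.1e-08) and -1.25 ± 0.16 (limma adjusted p = 1.5e-05). The fall was larger in CCNB1-negative cells, the difference being 1.37 ± 0.22 log2 units (limma adjusted p = 0.0015). CSTF2, a subunit of the cleavage machinery, fell by 2.75 and 1.66 on the log2 scale.

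**Figure D5:**
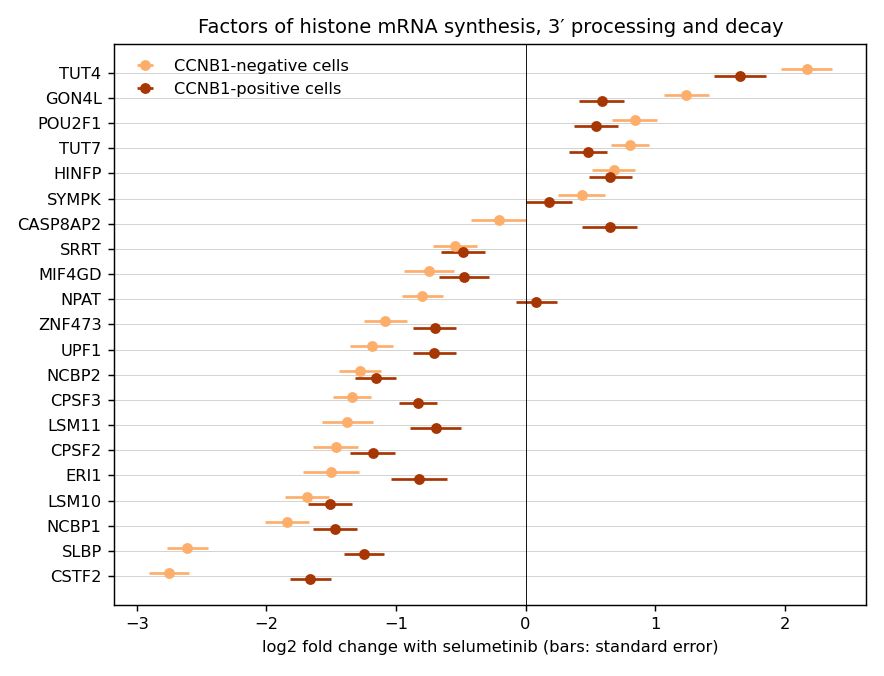
Points give the log2 fold change with selumetinib of 21 factors of histone mRNA synthesis, 3′ processing and decay in CCNB1-negative and CCNB1-positive cells, with bars for the standard error. CSTF2 and SLBP have the lowest values in CCNB1-negative cells (-2.75 and -2.61) and TUT4 the highest (2.17).

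LSM10 and LSM11, of the U7 particle that cuts histone pre-mRNA, fell in both fractions, as did its partner ZNF473, the cleavage factors CPSF2 and CPSF3, the exonuclease ERI1 and the decay helicase UPF1. The terminal uridylyl transferases TUT4 (log2 2.17 and 1.65) and TUT7 (0.81 and 0.48), which add uridines to RNA ends, rose in both. The transcription factors HINFP, of H4 promoters, and POU2F1, of the octamer, rose in both too. NPAT, the coactivator of the histone clusters, fell in CCNB1-negative cells (-0.80 ± 0.16, limma adjusted p = 4.1e-04) and had a log2 fold change of 0.08 ± 0.16 in CCNB1-positive cells (limma adjusted p = 0.66). Between untreated fractions, SLBP (-0.96), CASP8AP2 (-1.18) and NPAT (-0.80) were the 3 of 21 factors lower in CCNB1-positive cells by limma. None of the factors was higher, and of all genes 1.49% were lower and 1.31% higher. Under selumetinib none of the factors was lower, against 7.33% of all genes. CSTF2, UPF1 and ZNF473 were higher (3 of 21, against 13.1% of all genes), a share near that of all genes.

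The genes listed as replication-independent variants, which lie outside the clusters, mostly fell. Whether the mRNA of each of them, H2AFX included, ends only in a poly(A) tail was not examined. Of 11 tested, 10 fell in CCNB1-negative cells (median log2 fold change -1.15), against 34.4% of all genes. In CCNB1-positive cells 8 fell, against 26.3%, and 1 rose, against 39.7% (median -0.55). H2AFZ, which encodes H2A.Z, stood at 529 and 701 RPM in untreated CCNB1-negative, 611 and 731 in untreated CCNB1-positive, 65.9 and 48.6 in selumetinib CCNB1-negative and 305 and 275 RPM in selumetinib CCNB1-positive cells. It was lowest in the selumetinib CCNB1-negative libraries by a wide margin, with log2 fold changes of -3.57 ± 0.20 (limma adjusted p = 6.2e-09) and -1.31 ± 0.20 (limma adjusted p = 6.4e-05). The responses of H2AFZ, H2AFX and H2AFV differed between fractions by limma (2.26, 2.26 and 1.01 log2 units). These were 3 of 11, against 5.01% of all genes. The 1 that rose was H2AFJ, in CCNB1-positive cells (0.35 ± 0.14, limma adjusted p = 0.047). CENPA, the centromeric H3, was higher in CCNB1-positive cells both without (1.61 ± 0.15, limma adjusted p = 2.6e-05) and with selumetinib (2.25 ± 0.15, limma adjusted p = 1e-07).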

How the data were processed

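Per the methods and labels, the authors used Trim Galore 0.5.0 for trimming, HISAT2 2.1.0 for alignment on GRCh38 and SeqMonk for scaling of gene reads to library totals. They deposited log2 values. The annotation release, strand and multiple mapping are not given in the sources used here. All 8 value columns were used and 0 set aside.

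Whole reads were recovered by taking off 1 constant per library (100% within 0.05 reads, for genes under 10000 reads), and a gene without a read stood at 0.9 reads. RPM are these reads per 1000000 on genes. Genes that averaged 1 RPM or more were tested with limma 3.58.1 (mean-variance trend, R 4.3.3) on the deposited log2 values, with 1 coefficient per group. Fold changes of genes without a read in some library depend on the 0.9 reads set for them and on depth. All tested members had reads in every library. Residual degrees of freedom were 4. Standard errors measure the spread between libraries. The reads carry no molecular identifiers.

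On simulated reads for 13743 genes, limma recovered 99.0% of 4-fold and 74.0% of 2-fold differences, with 9 of 181 calls false. Only 199 of those genes were changed, whereas 11096 of 14920 genes were called in the response of CCNB1-negative cells. The rates may therefore not hold for the data or for members at low levels. GENCODE release 44 and RefSeq promoters gave the annotation (99.3% of identifiers found, 99.9% of these overlapping). Python 3.11.15, pandas 2.3.3, numpy 2.4.6, scipy 1.17.1 and matplotlib 3.10.9 were used.

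Named members are the 3 with the highest level per length in each family, for each comparison the called members that rose most and that fell most (3 each), the 3 at each end of the interaction, and HIST1H3G. HIST1H2BC, HIST1H2BE, HIST1H4C, HIST1H2AG, HIST1H2BI, HIST1H2BG, HIST1H2BH and HIST1H2BN were named after their values were seen. The members and lists were chosen with earlier results of these data known. Alternatives were no filter, a 10 RPM filter, a pseudocount of 1 RPM, quantile normalization, limma-voom, a replicate block, only the groups compared and each library left out. A filter on the mean log2 value and a scaling without MALAT1 and mitochondrial genes were added after seeing the data. COLO205 data were not analysed here.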

Additional observations from a re-analysis of the deposited data

How the results depend on the processing

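Members called were 10 in the response of CCNB1-negative cells, 11 in that of CCNB1-positive cells, 1 and 4 between the fractions of untreated and treated cells, and 0 in the interaction. With a filter of 10 RPM only 2 members were tested and the counts were 2, 2, 0, 2 and 0. Quantile normalization gave 13 in the first response (8 rose, 5 fell), 7 in the second and 1 in the interaction (HIST2H2BE), and a pseudocount of 1 RPM gave 1 in the interaction (HIST1H2BJ). The untreated count of 1 was 0 without a filter, under the 10 RPM filter, quantile normalization, the pseudocount, limma-voom, only the groups compared and the scaling without MALAT1 and mitochondrial genes. Leaving out each library gave 10 to 11, 10 to 12, 0 to 1, 2 to 5 and 0 to 2. Of 419 alternative values of the 26 called member values, 388 kept direction and call, 30 kept direction alone and 1 turned, HIST1H3J in CCNB1-positive cells under quantile normalization (-0.050). Over all genes that normalization put the median responses at -0.04 and -0.04, against 0.12 and 0.22. The causes were not tested.

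The labels do not say what a replicate number marks. Deviations of same-numbered libraries correlated at 0.23 between the untreated fractions and 0.41 between the treated ones, and at -0.08 to 0.11 between other groups. Whether fractions of 1 treatment share a culture is not stated in the sources used here. With the replicate block the counts were 10, 11, 1, 4 and 0, and it changed no call count. Depth limits the 55 untested members, 33 of the 70 having fewer than 10 reads in all libraries together.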
